A study of Mus musculus with 21 samples.

Results

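Asb genes encode proteins with ankyrin repeats and a SOCS box, and 9 of them that are known from striated muscle are described here in the mouse left ventricle: Asb2, Asb5, Asb8, Asb10, Asb11, Asb12, Asb14, Asb15 and Asb18. They are 9 of 19937 genes that had a probe set annotated to 1 gene only. Where a gene had several such probe sets, the one with the highest mean log2 value over all 21 arrays was to be used. Each of the 9 genes had 1, so this mean decided nothing. The genes were chosen by name, but with earlier results of these arrays known, among them the fall of Asb15 after 4 tamoxifen injections in MerCreMer mice. All 9 passed the filter for low values.

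The arrays measured left ventricle RNA from mice aged 9 to 13 weeks, killed 4 days after 1 or 4 consecutive daily intraperitoneal injections. The transgenic mice, Tg(αMHC-MerCreMer), carry a tamoxifen-inducible Cre recombinase driven by the alpha myosin heavy chain promoter, which is active in cardiomyocytes, and the labels name no loxP-flanked allele in any group. MerCreMer mice received tamoxifen at 40 mg/kg or a control injection for 1 or for 4 days, with 3 arrays in each of these 4 groups. Wild-type mice received 4 control injections (6 arrays) or 4 tamoxifen injections (3 arrays), and no wild-type group had 1 injection. There were 1 male and 2 females in each group of 3, and 3 males and 3 females among the wild-type controls. The labels do not say whether each array is a separate animal, so all p-values below measure the spread between these samples.

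In an ASB ubiquitin ligase, the ankyrin repeats bind the protein to be destroyed, and the SOCS box docks on elongin B, elongin C and the scaffold cullin-5, whose RING partner Rnf7 recruits the enzyme that hands over ubiquitin. The ASB protein is thus the interchangeable part that sets which protein is tagged for the proteasome. In striated muscle, ASB2 is known for removing filamins, the actin cross-linkers of the Z-disc, and several other ASB proteins are known mainly by their high expression in muscle.

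The 250 bases before each start site listed by RefSeq (13 windows for the 9 genes, build GRCm38.p6) were searched on both strands for short motifs bound by muscle transcription factors, since most of these genes changed in the same groups. The MEF2 motif occurred in 4 of the 13 windows, each of a different gene, against 2.92% of all 32851 windows of this length. The CArG motif of serum response factor occurred in 2 of the 13, against 1.47%. Some genes have several windows, and a match is a stretch of letters and not a shown binding site. The matches with up to 10 bases on each side are printed with the motif in capitals, each on the strand of its gene.
Asb14, MEF2, chr14:26894574-26894603, plus strand: tatagtaaagCTATTTATAAtggtcaccgg
Asb12, MEF2, chrX:95478158-95478187, minus strand: ggagggcagaCTAAAAATAGccacctagaa
Asb5, MEF2, chr8:54571348-54571377, plus strand: agtctctgctTTAAAAATAGaaaatggtac
Asb18, MEF2, chr1:90014667-90014687, minus strand: agccctgattCTATTTATAGc
Asb5, CArG, chr8:54550110-54550139, plus strand: taattaaataCCAAAAAAGGaaatcatcgg
Asb2, CArG, chr12:103356046-103356075, minus strand: agaaacatacCCATATATGGgctccatgtc

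The motif of Asb14 ended 21 bases before its listed start. The 2 motifs of Asb5 lay before different start sites of that gene. Asb15 had neither motif in its window, which is printed whole because this gene was among those with the lowest values after 4 tamoxifen injections, and its 3 matches to the E-box CANNTG are in capitals. The E-box was present in 66.2% of all windows and in 9 of the 13 windows here.
Asb15, chr6:24527894-24528143, plus strand: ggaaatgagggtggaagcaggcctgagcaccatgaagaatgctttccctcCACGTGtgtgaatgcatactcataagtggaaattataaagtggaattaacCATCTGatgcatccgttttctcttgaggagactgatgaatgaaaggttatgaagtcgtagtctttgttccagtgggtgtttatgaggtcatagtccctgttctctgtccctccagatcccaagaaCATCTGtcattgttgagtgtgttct

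The motif GGAATG, bound by TEAD factors, occurred in 2 of the 13 windows (12.6% of all windows), and AGATAA, bound by GATA factors, in 1 (9.99% of all windows).

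Every array had the cardiomyocyte markers of left ventricle at a median log2 level of 11.87 to 12.24 over 14 genes. Of 12 skeletal muscle markers 8 were below the filter, among them the fast myosins Myh1, Myh2 and Myh4, whose highest values on any array were 3.99, 4.52 and 3.74. The MerCreMer 4-tamoxifen arrays differed more among themselves than those of other groups: their mean variance per gene was 0.123 against 0.018 to 0.0272 elsewhere, and their pairwise correlations over genes were 0.9182 to 0.9742 against at least 0.9824. Replicate 3 of this group had the lowest weight (0.0702) in a fit that estimates a weight for each array, so results that rest on it are given with and without it. The arrays also fell into 2 sets by the signal of 1 unannotated probe set, 8 brighter ones, all MerCreMer, at 11.47 to 11.52 and 13 dimmer ones at 11.22 to 11.36; the labels do not name these sets as batches.

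On the 18 arrays outside the MerCreMer 4-tamoxifen group the 9 genes varied little. The range of log2 values over those arrays was narrowest for Asb8, from 8.82 to 9.14, and widest for Asb5, from 6.27 to 7.07. Asb15 stayed between 7.96 and 8.36 and Asb14 between 8.71 and 9.29. Values of different probe sets are not compared with each other, because a probe set's brightness also depends on its probes.

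**Figure D1:**
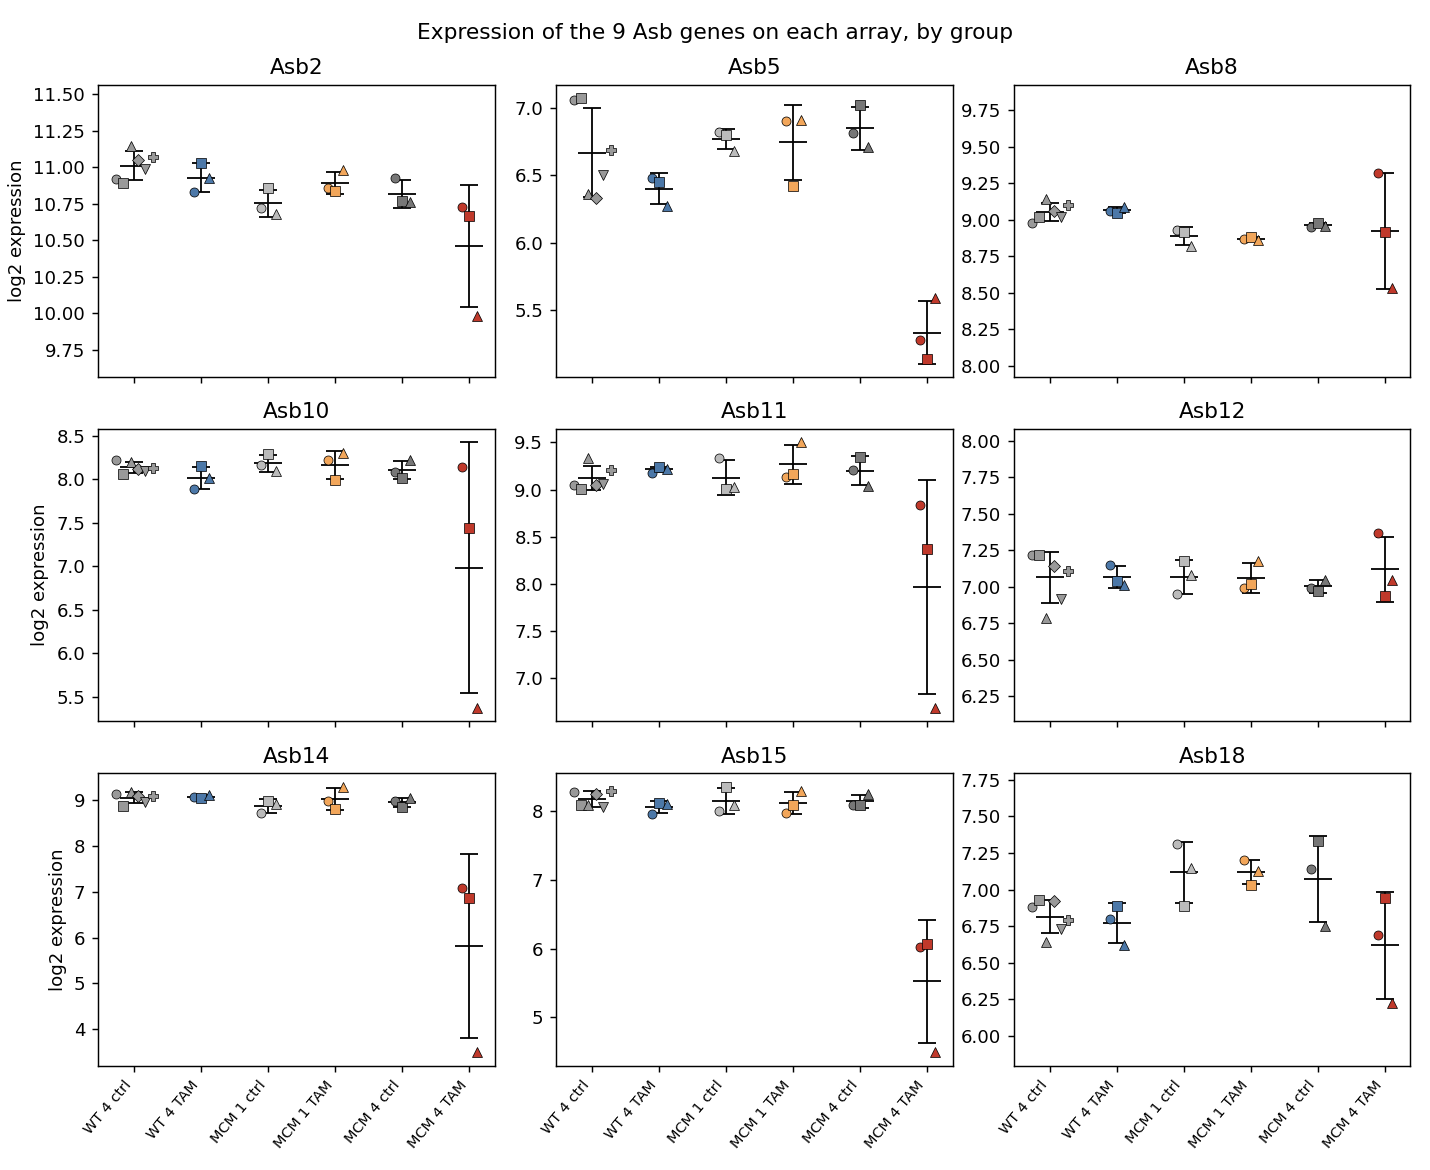
Log2 expression (y axes) of each of the 9 Asb genes on every array, by group (x axis); each point is 1 array, its shape gives the replicate number, the horizontal line is the group mean and the bars are 1 SD. Asb5, Asb11, Asb14 and Asb15 lie below all other groups on every MerCreMer 4-tamoxifen array. Replicate 3 of that group lies lowest for every gene except Asb5 and Asb12.

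After 4 tamoxifen injections in MerCreMer mice, 6 of the 9 Asb genes fell, none rose and 3 did not pass the test. The genes that fell were Asb14, Asb15, Asb5, Asb11, Asb10 and Asb18. Over all 11384 genes tested in limma at an adjusted p under 0.05, 9.41% fell and 13.9% rose. The median change of the 9 genes was -1.12 on the log2 scale, against 0.01 for all genes tested. Without replicate 3 of the tamoxifen group 4 genes fell and the median was -0.33. In that fit 657 of the 11384 genes tested fell and 1222 rose. The fit shares 1 estimate of the spread over all 6 groups; with only the 6 arrays compared, the changes were the same but only Asb5 passed (adjusted p = 0.0495), and Asb15 (adjusted p = 0.0985), Asb14 (0.22), Asb11 (0.314), Asb18 (0.401) and Asb10 (0.406) did not. Values are from left ventricle tissue, where fewer cells of a type and less RNA per cell cannot be told apart.

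Asb14, whose substrates are not well described, had log2 values of 8.97, 8.84 and 9.04 after 4 control injections in MerCreMer mice and 7.08, 6.87 and 3.50 after 4 tamoxifen injections. All 3 tamoxifen arrays were below all controls, and replicate 3 was far below the other 2. The fitted change was -3.13 (SE 0.55, 95% interval -4.29 to -1.98, limma adjusted p = 0.000675). Taken array by array against the control mean, the level was 3.65- and 4.23-fold lower in replicates 1 and 2. The value of replicate 3 is below the filter of 5 and the array medians of 4.57 to 4.72, so the size of the fall on that array, and of the fitted change that includes it, is not resolved. Without replicate 3 the change was -1.97 (adjusted p = 1.1e-08).

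Asb15, a subunit known for its link to skeletal muscle mass and differentiation, had log2 values of 8.09, 8.10 and 8.25 after control and 6.02, 6.07 and 4.49 after tamoxifen. The groups did not overlap, and replicates 1 and 2 were close together with replicate 3 lower still. The change was -2.62 (SE 0.265, interval -3.18 to -2.06, limma adjusted p = 4.14e-06), and it was known when the 9 genes were chosen, so it is no independent evidence about them. The value of replicate 3 is again below the filter and the array medians. Without replicate 3 the change was -2.08, and replicates 1 and 2 were 4.37- and 4.22-fold below the control mean.

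Asb5, a subunit known from muscle satellite cells and growing arteries, had log2 values of 6.81, 7.02 and 6.71 after control and 5.28, 5.14 and 5.59 after tamoxifen. Here replicate 3 was the highest of the 3 tamoxifen arrays, and the SD was 0.229 in the tamoxifen group and 0.155 in the control group. The change was -1.51 (SE 0.181, interval -1.89 to -1.13, limma adjusted p = 2.18e-05), or 2.84-fold lower, and was -1.66 without replicate 3.

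Asb11, a subunit of the endoplasmic reticulum membrane described as acting on ribophorin 1 and the cell death protein BIK, had log2 values of 9.21, 9.35 and 9.04 after control and 8.84, 8.37 and 6.68 after tamoxifen. The groups did not overlap, but replicate 1 of the tamoxifen group was close to the lowest control. The change was -1.24 (SE 0.318, interval -1.91 to -0.57, limma adjusted p = 0.0104). Without replicate 3 it was -0.61 (adjusted p = 0.00629).

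Asb10, a gene also studied in the eye in connection with glaucoma, had log2 values of 8.08, 8.02 and 8.22 after control and 8.14, 7.44 and 5.37 after tamoxifen. Replicate 1 of the tamoxifen group lay inside the control range, replicate 2 below it and replicate 3 far below it. The change of -1.12 (SE 0.39, interval -1.94 to -0.30) passed the test by a small margin (limma adjusted p = 0.045), and without replicate 3 it was -0.33 and did not pass (adjusted p = 0.13). It also did not pass without control replicate 1, 2 or 3 (-1.23, -1.13 and -1.02, adjusted p = 0.0761, 0.0924 and 0.131).

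Asb18, of which little is known, had log2 values of 7.14, 7.33 and 6.75 after control and 6.69, 6.94 and 6.22 after tamoxifen. The groups overlapped, since replicate 2 of the tamoxifen group was above the lowest control. The change was -0.45 (SE 0.158, interval -0.79 to -0.12, limma adjusted p = 0.0453), and without replicate 3 it was -0.26 and did not pass (adjusted p = 0.246). It also did not pass without tamoxifen replicate 1 (-0.46, adjusted p = 0.0662) or without control replicate 1 or 2 (-0.45 and -0.31, adjusted p = 0.105 and 0.205).

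Asb2, the filamin-directed subunit, had log2 values of 10.93, 10.77 and 10.76 after control and 10.73, 10.67 and 9.98 after tamoxifen. All 3 tamoxifen arrays were below all controls, but replicates 1 and 2 only slightly. The change of -0.36 (SE 0.139, interval -0.66 to -0.07) did not pass the test (limma adjusted p = 0.0669), and it was -0.12 without replicate 3. Without tamoxifen replicate 1 or 2 it passed, at -0.51 and -0.48 (adjusted p = 0.0149 and 0.02).

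Asb8, described as acting on the kinase TBK1, had log2 values of 8.95, 8.98 and 8.96 after control and 9.32, 8.92 and 8.53 after tamoxifen. The tamoxifen arrays lay on both sides of the controls, whose SD was 0.0186. The change of -0.04 had an interval of -0.29 to 0.21 (limma adjusted p = 0.839).

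Asb12, an X-linked gene, had log2 values of 6.99, 6.97 and 7.05 after control and 7.37, 6.94 and 7.05 after tamoxifen. Only replicate 1 of the tamoxifen group was above the controls. The change of 0.11 had an interval of -0.13 to 0.36 (limma adjusted p = 0.508).

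Groups did not overlap, with tamoxifen lower, for 5 of the 9 genes (Asb2, Asb5, Asb11, Asb14 and Asb15), against 11.3% of all genes tested. The median difference from the control mean over the 9 genes was -0.36, -0.66 and -1.25 on tamoxifen replicates 1, 2 and 3. On the arrays of the other groups this median lay between -0.08 and 0.16. The split into brighter and dimmer arrays was made after seeing the data. The 8 brighter arrays hold 2 control and 2 tamoxifen arrays of this comparison, the latter being replicates 1 and 3. Within the brighter arrays Asb14, Asb15 and Asb5 fell, with changes of -4.47, -3.22 and -1.35 (limma adjusted p = 0.0425, 0.0246 and 0.0222). Asb11, Asb10 and Asb18 did not pass. Replicate 3 is below the filter for Asb14 and Asb15, so the sizes of their falls here are not resolved. With the array set as a block in all arrays, Asb10 lost its call (adjusted p = 0.0528).

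**Figure D2:**
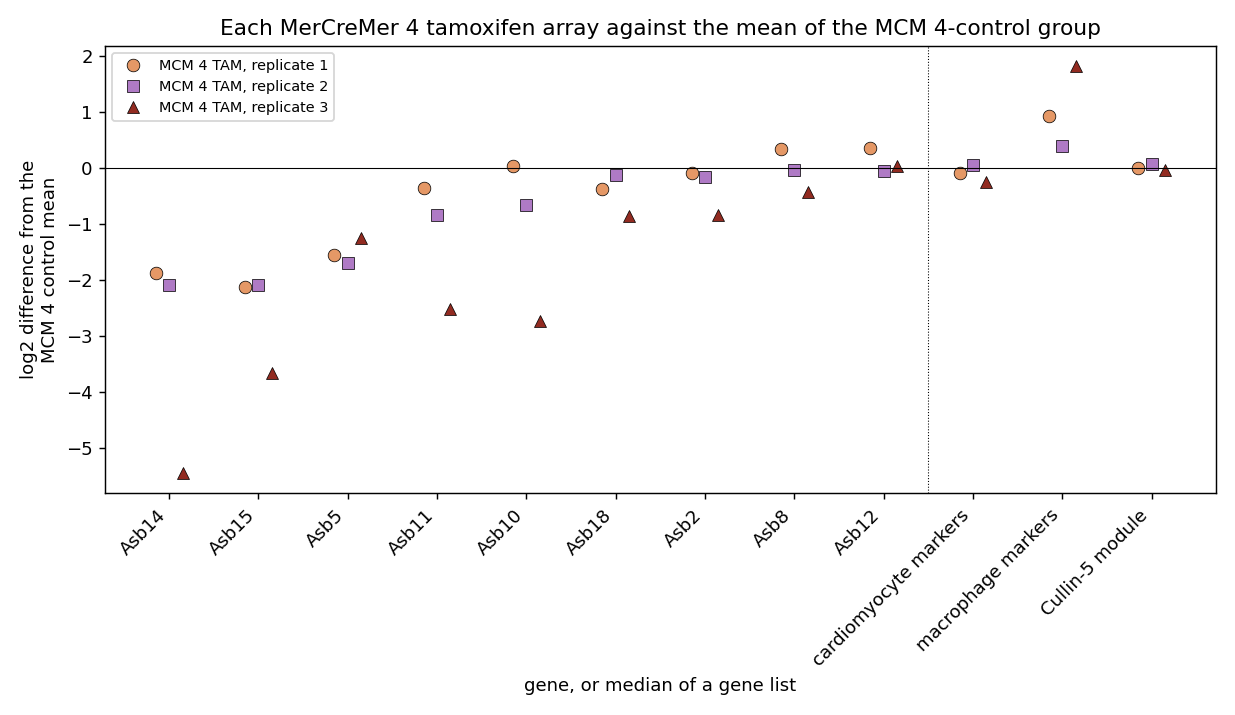
Log2 difference (y axis) of each MerCreMer 4-tamoxifen array from the mean of the MerCreMer 4-control group, for the 9 Asb genes and for the median of 3 gene lists (x axis); each symbol is 1 array. Replicate 3 is the lowest array for every Asb gene except Asb5, where it is highest, and Asb12, where it lies between the others; it is the highest array for the macrophage markers, at 1.82.

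Markers of other cell types moved on the same arrays, where 9.41% of all genes tested fell and 13.9% rose. Without replicate 3 of the tamoxifen group, 657 of the 11384 genes tested fell and 1222 rose. All 12 macrophage markers rose, with a median change of 1.04 (11 and 0.67 without replicate 3), and the median log2 level of the list was 7.18 to 8.41 in the MerCreMer 4-tamoxifen group and 6.39 to 6.96 on the other arrays. Array by array that list was 0.94, 0.39 and 1.82 above the control mean in replicates 1, 2 and 3. Of 14 cardiomyocyte markers 3 fell and none rose, with a median change of -0.09, and the list was -0.08, 0.06 and -0.25 from the control mean on the same arrays. Of 10 endothelial markers 3 fell (1 without replicate 3), of 8 fibroblast markers none passed the test, and of 6 smooth muscle and pericyte markers 1 rose. Of 5 atrial markers tested 1 fell, Myl7, the atrial myosin light chain, with a change of -3.77 (SE 1.11, limma adjusted p = 0.0211). Without replicate 3 it was -3.83. After 4 control injections Myl7 was 3.20 higher in MerCreMer than in wild-type mice, with no overlap (limma adjusted p = 0.119). The difference of its tamoxifen change from that of wild-type mice did not pass (-4.62, limma adjusted p = 0.0602). Myl4, Dkk3 and Nr2f2 had changes of -2.11, -0.95 and -0.13 and did not pass, nor did Nppa at 1.02. The median log2 level of the 7 atrial markers was 5.23 to 5.84 in the MerCreMer 4-tamoxifen group and 6.56 to 6.81 in its control group, and 4.93 to 7.01 over the other arrays. Of 4 skeletal muscle markers tested 1 rose, Tnnt3, the fast skeletal troponin T, by 1.84 (limma adjusted p = 6.85e-05). The part of these cell types, or of atrial tissue, in the changes of the Asb genes was not tested.

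After a single tamoxifen injection in MerCreMer mice none of the 9 Asb genes passed the test in limma, and none had an unadjusted p under 0.05. Of all genes tested, 0.00878% passed. Asb14 had log2 values of 8.71, 8.99 and 8.91 after 1 control injection and 8.99, 8.81 and 9.29 after 1 tamoxifen injection. Asb15 had 8.0, 8.36 and 8.09 against 7.98, 8.09 and 8.30, and Asb5 had 6.82, 6.80 and 6.68 against 6.90, 6.42 and 6.91. The groups overlapped for each of these genes.

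The changes of the 9 genes after 1 injection lay between -0.03 and 0.16. The intervals were -0.99 to 1.32 for Asb14, -0.59 to 0.53 for Asb15 and -0.40 to 0.36 for Asb5. The fitted fall of each of these 3 genes after 4 injections lies outside its interval after 1 injection. As the fit shares 1 estimate of the spread, the intervals and p-values here also carry the spread of the MerCreMer 4-tamoxifen group. For Asb14 the SD was 2.01 in that group, against 0.144 and 0.243 in the 1-control and 1-tamoxifen groups. A p that misses the threshold does not show that a gene was the same in both groups.

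In wild-type mice 4 tamoxifen injections likewise left none of the 9 Asb genes past the test in limma, with none at an unadjusted p under 0.05, and 0% of all genes tested passed. Asb14 had a lowest, median and highest log2 value of 8.86, 9.08 and 9.18 in the 6 control arrays, and 9.06, 9.04 and 9.11 on the tamoxifen arrays. Asb15 had 8.06, 8.17 and 8.30 in the controls, and 7.96, 8.12 and 8.11 after tamoxifen. For Asb5 the controls were at 6.33, 6.59 and 7.07 and the tamoxifen arrays at 6.48, 6.45 and 6.27. Of the 3 genes, Asb14 had its tamoxifen arrays inside the control range, and Asb5 and Asb15 each had 1 tamoxifen array below it.

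The lowest change in wild-type mice was that of Asb5, at -0.24 (interval -0.57 to 0.09), and the highest 0.13, that of Asb11. The interval was -0.95 to 1.06 for Asb14 and -0.60 to 0.37 for Asb15. These intervals too carry the spread of the MerCreMer 4-tamoxifen group. For Asb14 the SD was only 0.119 in the wild-type controls and 0.0351 after tamoxifen.

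Between MerCreMer and wild-type mice after 4 control injections, none of the 9 genes passed the test in limma, and none had an unadjusted p under 0.05. Of all genes tested 0.676% passed in either direction. Asb18 had the largest difference, 0.27 higher in MerCreMer (interval -0.02 to 0.56, adjusted p = 0.36), with log2 values of 7.14, 7.33 and 6.75 in MerCreMer and a lowest, median and highest of 6.64, 6.83 and 6.93 in wild type. Asb2 was -0.19 from wild type (interval -0.44 to 0.07). Both pairs of groups overlapped.

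**Figure D3:**
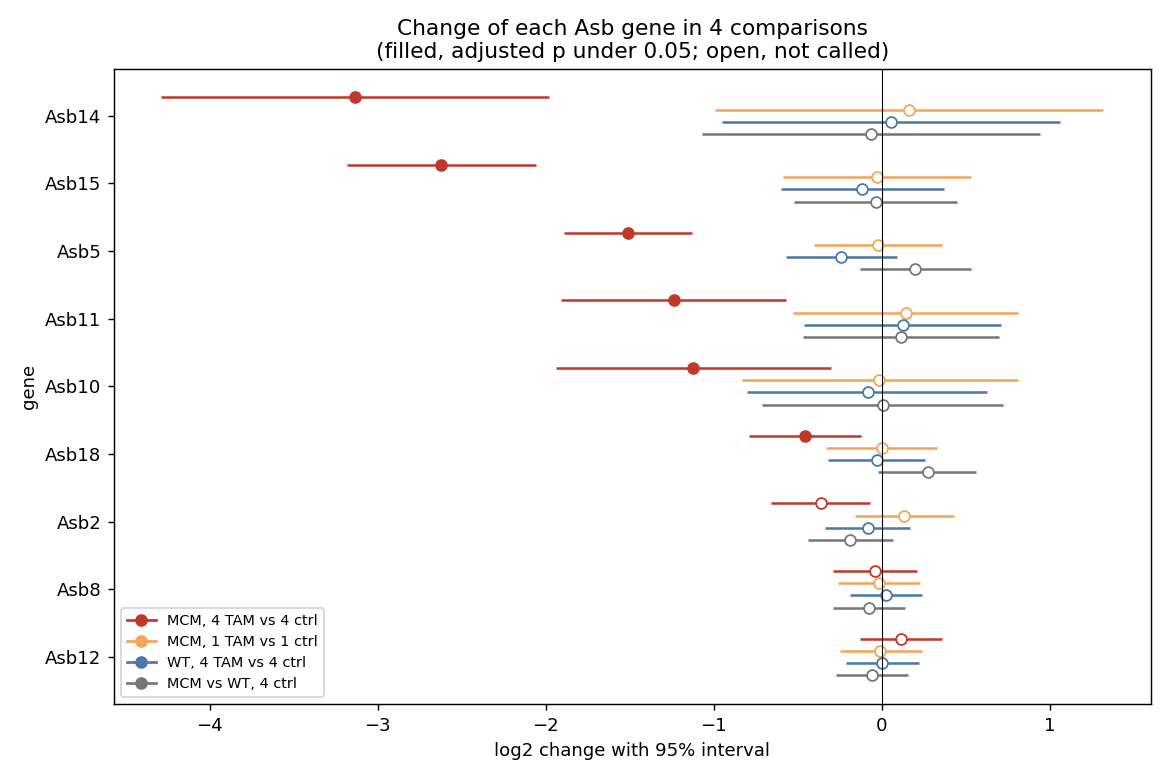
Log2 change (x axis) of each of the 9 Asb genes (y axis) in 4 comparisons, with 95% intervals as lines; filled symbols have a limma adjusted p under 0.05. Filled symbols occur only for 4 tamoxifen against 4 control injections in MerCreMer mice, for 6 genes.

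The difference between the tamoxifen changes of MerCreMer and wild-type mice was tested directly, and it passed for 3 of the 9 genes, all more negative in MerCreMer, against 3.53% of all genes tested in that direction and 4.45% in the other. It was -3.19 for Asb14 (SE 0.729, interval -4.72 to -1.66, limma adjusted p = 0.0122), -2.50 for Asb15 (SE 0.352, adjusted p = 3e-04) and -1.26 for Asb5 (SE 0.24, adjusted p = 0.00359). With 1 array left out at a time it ranged from -3.79 to -1.99 for Asb14, -2.79 to -1.95 for Asb15 and -1.42 to -1.16 for Asb5. Asb11 at -1.36 (interval -2.25 to -0.48) missed the threshold with an adjusted p of 0.0541, and passed it without MerCreMer tamoxifen replicate 1, 2 or 3 (-1.76, -1.62 and -0.71). For Asb10 the difference was -1.04 (interval -2.13 to 0.05), and for Asb18 -0.43 (interval -0.87 to 0.01); they passed without tamoxifen replicate 1 (-1.58) and replicate 2 (-0.62) respectively. Asb2, Asb8 and Asb12 had differences of -0.28, -0.07 and 0.11.

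The difference between 4 and 1 injections in MerCreMer mice passed for the same 3 genes, again more negative after 4 injections, against 3% of all genes tested in that direction and 2.78% in the other. It was -3.29 for Asb14 (SE 0.777, limma adjusted p = 0.0183), -2.59 for Asb15 (SE 0.375, adjusted p = 0.000561) and -1.49 for Asb5 (SE 0.256, adjusted p = 0.00208). With 1 array left out at a time these 3 ranged from -3.94 to -2.13, -2.88 to -2.06 and -1.64 to -1.37. The full fit of this difference gave smaller values for other genes. For Asb11 it was -1.38 (adjusted p = 0.0771), for Asb10 -1.11 (adjusted p = 0.237) and for Asb2 -0.50 (adjusted p = 0.14). The call of Asb14 was lost without replicate 1 of the MerCreMer 1-control group (adjusted p = 0.0545) or replicate 3 of the 1-tamoxifen group (adjusted p = 0.0509), and in 6 of 25 alternatives in all, with an adjusted p of up to 0.262. Asb11 passed without any 1 of the 3 MerCreMer 4-tamoxifen arrays, Asb2 without replicate 1 or 2, Asb10 without replicate 1 and Asb18 without replicate 2. Both tests of a difference use the same MerCreMer 4-injection arrays as the first comparison, so they are not separate evidence.

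None of the 9 genes differed between males and females past the test in limma, and none had an unadjusted p under 0.05; 0.29% of all genes tested passed. The fitted sex differences lay between -0.01 and 0.23.

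Of the other Asb genes, 6 were tested, and 1 of them fell in MerCreMer mice after 4 tamoxifen injections, where 9.41% of all genes tested fell. Whether the share of the other Asb genes differs from that of the 9 genes was not tested. Asb4, a subunit known from blood vessel development in the placenta, fell by 0.57 (SE 0.127, limma adjusted p = 0.00384), from log2 values of 5.29, 5.39 and 5.05 to 4.56, 4.68 and 4.76, near the filter of 5. Asb1, Asb3, Asb6, Asb7 and Asb13 had changes from -0.12 to 0.20 and did not pass. Asb9, Asb16 and Asb17 were below the filter on all 21 arrays.

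The ASB proteins dock on a shared core. Of the 7 genes tested in a list of the cullin-5 module, 1 rose, none fell, and the median change was 0.09. This list also counts Cul2, which encodes a cullin other than cullin-5. Of all genes tested, 13.9% rose. Eloc, which encodes elongin C, rose by 0.29 (SE 0.0793, limma adjusted p = 0.0143), from log2 values of 8.58, 8.79 and 8.75 to 9.14, 8.88 and 8.97, with no overlap. Cul5, the scaffold itself, had a change of 0.17 (interval -0.05 to 0.39), which passed the test at 0.29 without replicate 3 of the tamoxifen group (adjusted p = 0.0481). Its RING partner Rnf7 had a change of -0.29 (interval -0.58 to 0.00) and Elob, which encodes elongin B, 0.01 (interval -0.12 to 0.14). Arih2, Ube2f and Cul2 had changes of 0.03, 0.14 and 0.09 and did not pass. Between MerCreMer and wild-type mice after 4 control injections, Elob was 0.24 higher in MerCreMer (limma adjusted p = 0.0441), as were 0.545% of all genes tested. In this comparison MerCreMer replicates 2 and 3 were in the brighter array set and all wild-type arrays in the dimmer set. Genotype and array set are thus partly confounded here.

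Cullins are switched on by attachment of NEDD8 and recycled by the COP9 signalosome and CAND proteins. Of 19 tested genes of these steps 3 rose and none fell, with a median change of 0.12, a share near the 13.9% of all genes tested that rose. Uba3, the catalytic subunit of the NEDD8 activating enzyme, rose by 0.36 (limma adjusted p = 0.000438), from 8.42, 8.39 and 8.34 to 8.79, 8.75 and 8.68 on the log2 scale. Cops5, the NEDD8-removing subunit of the signalosome, rose by 0.36 (limma adjusted p = 0.00487). Dcun1d3, which helps attach NEDD8, rose by 0.47 (limma adjusted p = 0.0363), but by 0.18 without replicate 3 of the tamoxifen group (adjusted p = 0.175).

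Of 16 other genes with a SOCS box 3 rose and none fell, with a median change of 0.18, against the same 13.9% of all genes. Socs3, the inhibitor of gp130 cytokine receptors, rose by 1.21 (SE 0.301, limma adjusted p = 0.00877), with log2 values of 5.62, 5.82 and 5.68 after control and 5.82, 6.82 and 8.08 after tamoxifen. Replicate 3 was again the most extreme array, and without it the rise was 0.64 (adjusted p = 0.0128). Wsb1 rose by 0.80 (limma adjusted p = 0.000503) and Spsb2, which acts on inducible nitric oxide synthase, by 0.40 (limma adjusted p = 0.00129).

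Of 9 tested genes whose proteins are described as targets of ASB ligases, 5 rose and none fell, with a median change of 0.46. Over all genes tested 13.9% rose. The difference from the tamoxifen change of wild-type mice passed for 1 of the 9, Flnc, at 1.095 (limma adjusted p = 0.000981). Flnc, the muscle filamin, rose by 1.05 (SE 0.133, limma adjusted p = 3.53e-05), from log2 values of 9.74, 10.08 and 9.60 to 10.59, 10.78 and 11.21. Des, which encodes the intermediate filament desmin, rose by 0.46 (limma adjusted p = 0.00904), from 11.25, 11.32 and 11.21 to 11.50, 11.63 and 12.02. In both genes all tamoxifen arrays were above all controls. Tbk1 rose by 0.36 (limma adjusted p = 0.0025) and Ckb, the brain creatine kinase, by 0.66 (limma adjusted p = 0.00714). Rpn1 (ribophorin 1) and Bik, described above for Asb11, had changes of 0.323 and 0.235 and did not pass (limma adjusted p = 0.0718 and 0.147). Asb2 and Asb8, described above as acting on filamins and TBK1, did not pass themselves. Any link between the changes of the Asb genes and of this list was not tested. These are RNA levels, and the arrays hold no measurement of the proteins on which ubiquitin ligases act. Without replicate 3 of the tamoxifen group 4 genes of this list rose and 1 fell, with a median of 0.28. In that fit 1222 of the 11384 genes tested rose and 657 fell.

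Other muscle ubiquitin ligases went both ways: of 20 tested, 6 fell and 2 rose, with a median change of -0.17. The shares over all genes tested were 9.41% that fell and 13.9% that rose. Klhl40, a stabiliser of thin filament proteins, rose by 1.72 (SE 0.111, limma adjusted p = 1.59e-08), from log2 values of 6.08, 6.04 and 5.76 to 7.93, 7.64 and 7.47. Fbxo40, a muscle F-box protein acting on the insulin receptor substrate, fell by 1.14 (SE 0.153, limma adjusted p = 6.14e-05), from 9.29, 9.14 and 9.12 to 8.27, 8.36 and 7.50. Fbxl22, a Z-disc F-box protein, fell by 0.85 (limma adjusted p = 7.39e-05) and Klhl31 by 0.64 (limma adjusted p = 6.71e-05). Without replicate 3 of the tamoxifen group 4 genes of this list fell and 3 rose, with a median of -0.05. In that fit 657 of the 11384 genes tested fell and 1222 rose.

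Of 11 tested muscle transcription factors 2 fell and none rose, with a median change of -0.23, while 9.41% of all genes tested fell. Mef2c, one of the factors that bind the MEF2 motif printed above, fell by 0.66 (SE 0.0615, limma adjusted p = 1.48e-06), from log2 values of 7.92, 8.07 and 8.11 to 7.40, 7.33 and 7.38. Mef2a fell by 0.41 (limma adjusted p = 0.00673), from 9.84, 9.90 and 9.90 to 9.14, 9.81 and 9.45. Of the 4 genes with a MEF2 motif in a window, Asb14, Asb5 and Asb18 fell and Asb12 did not pass the test. Asb15, Asb11 and Asb10 fell without this motif in their windows, and Asb2 and Asb8, also without it, did not pass. The falls of Asb18 and Asb10 did not pass without replicate 3 of the tamoxifen group. Whether the motif, Mef2c or Mef2a has a part in the changes of the Asb genes was not tested. Without replicate 3 of the tamoxifen group 5 of the factors fell and 1 rose. In that fit 657 of the 11384 genes tested fell and 1222 rose.

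**Figure D4:**
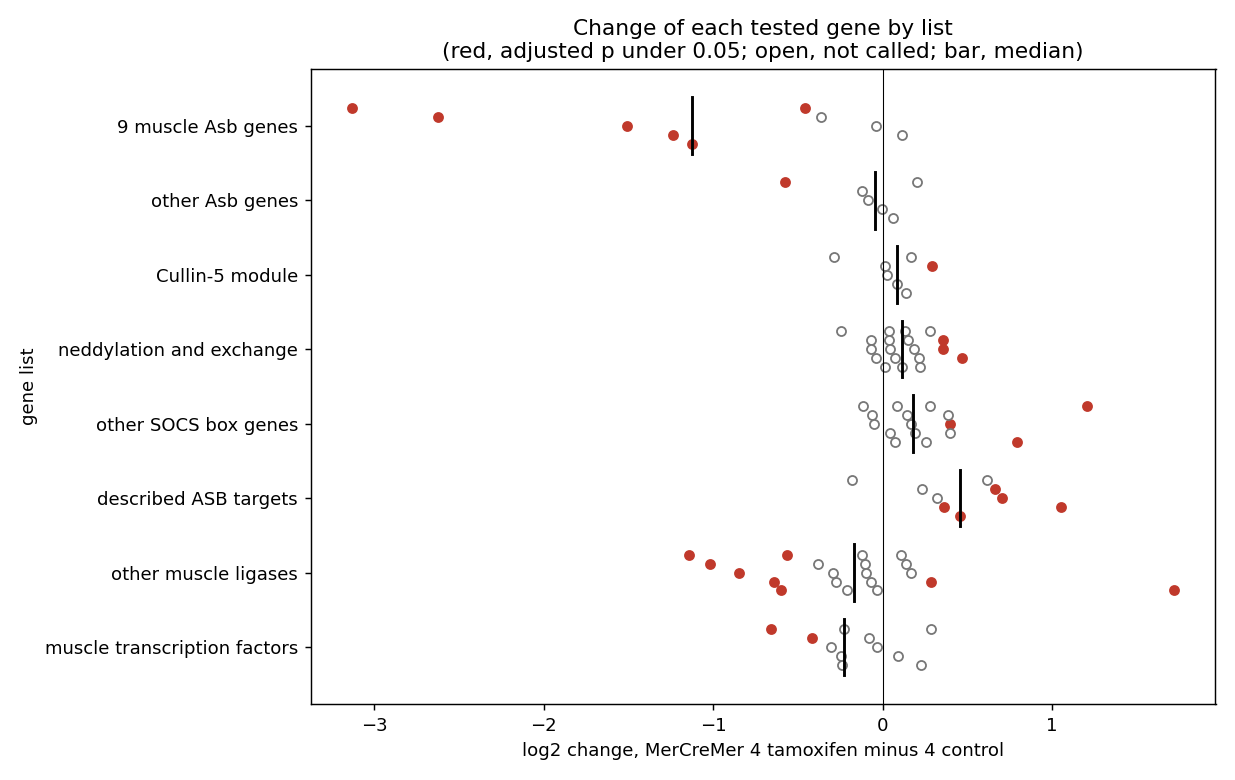
Log2 change (x axis) of every tested gene in 8 gene lists (y axis) for 4 tamoxifen against 4 control injections in MerCreMer mice; each point is 1 gene, red points have a limma adjusted p under 0.05 and the bar is the median of the list. The median is -1.12 for the 9 muscle Asb genes and 0.46 for the described ASB targets. The listed targets are not those of the fallen genes alone.

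Over all 21 arrays the 36 pairs of Asb genes had Pearson correlations from -0.09 to 0.97, with a median of 0.57 and the highest for Asb14 with Asb15. Without the MerCreMer 4-tamoxifen group (18 arrays) the correlations ranged from -0.71 to 0.66 with a median of 0.08. The points share arrays and groups, so the first set of values mainly restates the group difference. The mean of the 9 standardised genes was most similar over 21 arrays to Vegfb (0.98), a growth factor of the VEGF family, and to Hadhb and Hadha (0.973 each), the subunits of the mitochondrial trifunctional protein. On the 18 arrays the same correlations were 0.43, 0.21 and 0.23. It was most opposed to Timp1 (-0.982), an inhibitor of matrix metalloproteinases, with -0.55 on the 18 arrays.

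Single Asb genes had nearest genes of their own. Asb14 was nearest to Txlnb (0.989 over 21 arrays, 0.74 over 18) and Asb15 to Mlip (0.985 and 0.31). Asb5 was nearest to B3galt2 (0.919 and 0.76) and Asb10 to Pdk2 (0.986 over 21 arrays), a kinase that inhibits pyruvate dehydrogenase. Asb18 was nearest to Lsmem2 (0.865 and 0.81), and Asb8 to Slc38a3 (0.939 and 0.86), an amino acid transporter.

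Of the 18 genes next to the 9 Asb genes on either side in RefSeq's order, 8 were tested, of which 3 fell and 2 rose. Over all genes tested 9.41% fell and 13.9% rose. Lmod2, which encodes the thin filament protein leiomodin-2 and lies next to Asb15, fell by 0.65 (limma adjusted p = 0.000893), and Ndufa5 on its other side fell by 0.33 (limma adjusted p = 0.0428). Appl1, next to Asb14, rose by 0.44 (limma adjusted p = 0.000542), and Otub2, a deubiquitinase next to Asb2, rose by 0.79 (limma adjusted p = 0.000546). Pfkm, the muscle phosphofructokinase next to Asb8, fell by 0.72 (limma adjusted p = 0.0236).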

How the data were processed

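The values are the log2 expression values of the authors' deposited table, made with RMA per the submitters' processing notes from 21 arrays hybridised with biotin-labelled total RNA; the scale, a log2 unit, was read from the values, and array medians lay between 4.57 and 4.72. Of 34760 probe sets, 21640 name 1 gene and were used, 1321 name several genes and 11799 none. Each of 19937 genes was represented by its brightest probe set on average, and 11384 genes with a log2 value of at least 5 on at least 3 arrays were tested in limma 3.58.1 (R 4.3.3), with 6 groups and sex, 14 residual degrees of freedom and Benjamini-Hochberg adjustment over all genes tested. A gene is called at an adjusted p under 0.05. The number of arrays limits the precision, and no array pair was identical. The procedure was tested on simulated data. The 9 Asb genes were named in full. Of each list but the other Asb genes and the cullin-5 module, up to 4 called genes with the smallest adjusted p were named. Beside these, the genes with the most similar pattern, the described targets of Asb11 and the tested atrial markers were named. The genes and lists were chosen with earlier results of these data known. A few genes of the lists are not reported here.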

Additional observations from a re-analysis of the deposited data

Results flagged for a closer look

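The tamoxifen change after 4 injections differed between MerCreMer and wild-type mice for 4 Asb genes, by a test of the difference in limma. It was -3.19 for Asb14 (adjusted p = 0.0122), -2.50 for Asb15 (adjusted p = 3e-04), -1.26 for Asb5 (adjusted p = 0.00359) and -0.60 for Asb4 (adjusted p = 0.0348), each more negative in MerCreMer mice. The change in MerCreMer mice also differed between 4 and 1 injections for 3 of them, by -3.29 for Asb14 (adjusted p = 0.0183), -2.59 for Asb15 (adjusted p = 0.000561) and -1.49 for Asb5 (adjusted p = 0.00208). With 1 array left out, the difference between genotypes was as small as -1.99 for Asb14 and -1.95 for Asb15. The difference between 4 and 1 injections was then as small as -2.13 and -2.06. No array lay far from the others in the 6-array wild-type control group for any of the 9 genes, the only group large enough for that check.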

How the results depend on the processing

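For each Asb gene and comparison the fit was repeated with other covariates, weights, filters, normalisation and arrays. In 1393 of 1449 such repeats the gene kept its direction where called and its side of the threshold, 36 lost a call, 20 gained one and 0 reversed. Most of these repeats were of genes not called in the main fit, which had no call to lose. After 4 tamoxifen injections in MerCreMer mice 6 of the 9 genes were called. Only 1 was called (Asb5, with 18 genes in all) when only the arrays compared were fitted. Within the brighter array set, a setting chosen after seeing the data, 3 were called. When 1 array was left out 4 to 7 were called, with 1648 to 3846 called over all genes. Asb10 lost its call in 9 of 19 alternatives, Asb18 in 11, Asb11 in 2, Asb14 and Asb15 in 1 each and Asb5 in 0. The difference between genotypes called 3 genes, 3 to 5 with 1 array left out (5 without MerCreMer tamoxifen replicate 1 or 2), and 0 with replicate number as a block, where 27 genes in all were called. With 1 array left out it called 504 to 2242 over all genes. The difference between 4 and 1 injections called 3 genes, 2 to 6 with 1 array left out (6 without MerCreMer tamoxifen replicate 1 or 2), and 0 within the brighter set. With 1 array left out it called 378 to 1956 over all genes. The other comparisons called 0 of the 9 genes in every setting run.

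Of all genes, 2654 were called in the 4-injection MerCreMer comparison, 1065 with weights from each group's variance, 1578 with array weights, 1502 on female arrays alone, 1655 with replicate number as a block and 655 within the brighter set. Arrays with the same number in these 2 groups had correlations of 0.11, -0.04 and 0.05, where numbers 1 and 3 were highest with their own number and number 2 was not. These correlations are on another measure than the pairwise correlations over genes given above for the groups. In the 1-injection MerCreMer groups the values were 0.28, 0.07 and 0.25, each highest with its own number. These values are a hint of pairing from the data. As not every value was over 0.1, the numbers were not taken to pair arrays. Number 1 is the male in groups of 3. With the block Asb10 (adjusted p = 0.103) and Asb18 (adjusted p = 0.0644) lost their calls. A second quantile normalisation turned the 1583 genes higher and 1071 lower into 1368 and 1313 and kept the counts of the gene and marker lists, except that 4 endothelial markers fell and not 3; its median over all genes was -0.008 against 0.014. The causes were not tested.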
